A study of Mus musculus with 16 samples.

Results

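The 10 genes described here encode inhibitors of cyclin-dependent kinases and proteins that are used as markers of cellular senescence. They are Cdkn2a, Cdkn2b, Cdkn2c and Cdkn2d of the Ink4 family, Cdkn1a, Cdkn1b and Cdkn1c of the Cip/Kip family, and Gdf15, Glb1 and Lmnb1. The genes were chosen by name, and their probes were found through the transcript that the files give for each probe. This led to 13 of the 55681 probes of the array, and 12 of the 13 were kept, being well above background on 4 or more of the 16 arrays. All 10 genes had a kept probe and stood among the 26781 genes tested.

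The study compared the bladders of mature (MAT) and aged (AGED) C57BL/6 mice of both sexes. Ages were 12 months in the MAT groups and 27 to 30 months in the AGED groups, with 4 males and 4 females of each. RNA of the bladder body, kept in RNAlater and extracted with a miRNeasy kit, was labelled with Cy3 from 0.2 ug and hybridized to 1-colour Agilent arrays, 1 mouse on each. The comparisons ask whether these genes differ in RNA level between AGED and MAT bladders of the same sex, and whether that difference depends on sex.

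Ink4 proteins bind the kinases that cyclin D activates, and Cip/Kip proteins bind a wider range of cyclin and kinase complexes, so both families hold back the entry into S phase. In senescent cells, which have left the cell cycle for good, Ink4 inhibitors and Cdkn1a are often high, lysosomal beta-galactosidase activity is raised and lamin B1 is low. The Cdkn2a locus also encodes Arf, which stabilises the p53 protein, from a first exon of its own.

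All values are log2 signals scaled by subtracting the 75th percentile of the array, so that a difference of 1 is a 2-fold difference, and errors are SD over 4 arrays unless named. A gene was called where limma gave a change of 2-fold or more with an adjusted p under 0.05, after Benjamini-Hochberg adjustment over every gene tested. The exact tests are two-sided permutation tests, and with 4 arrays against 4 the smallest p they can give is 0.0286. Every direction follows the labels of the arrays. The study's table places Chil3, which encodes a chitinase-like protein of macrophages, among the genes that are lower in aged mice, whereas the arrays labelled AGED were the higher ones here. Of that table only Chil3, Mmp3 and S100a9 are described here, and no tally of its genes is given. The log2 signal of Chil3 was -2.73 ± 0.09 in MAT males and 2.96 ± 0.75 in AGED males (SD, n = 4), and -1.42 ± 0.17 in MAT females and 1.12 ± 0.84 in AGED females (SD, n = 4). Its log2 change was 5.68 in males (adjusted p = 5.77e-06 from limma) and 2.53 in females (adjusted p = 0.0219). The female call of Chil3 was lost without MAT female replicate 1, 2 or 4 or AGED female replicate 2, with an adjusted p of 0.0593 to 0.109.

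The labels of sex and tissue were checked with marker genes. Ddx3y, on the Y chromosome, was well above background on 4 of 4 arrays in both male groups and on 0 of 4 in both female groups. Xist, which silences an X chromosome in females, was well above background on 4 of 4 arrays in both female groups, on 1 MAT male array and on 0 AGED male arrays. All 8 smooth muscle genes and all 11 urothelium genes examined were tested, and the highest signals among them were those of Cnn1 and Upk1a. None of the 6 male accessory gland genes was kept.

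The arrays differed in brightness and evenness. AGED male replicate 1 was the dimmest, with a log2 75th percentile of 9.18 where the rest of its group had at least 9.90, and 52.3% of its probes were well above background. On the other 3 AGED male arrays this share was 58.6% to 61.2%, and it was 60.4% to 65.8% in MAT males, 64.6% to 68.2% in MAT females and 59.9% to 63.2% in AGED females. Feature Extraction also multiplies each background-subtracted signal by a factor that follows the position of the spot on the array, a step called multiplicative detrending. On AGED male arrays the 99th percentile of this factor was 0.99 to 1.72 on the log2 scale, against 0.25 to 1.30 on MAT male arrays and 0.10 to 0.38 on female arrays. Probes printed at 10 positions give the evenness that is left. The median SD of their log2 signal within an array was 0.19 to 0.36 on AGED male arrays, 0.06 to 0.29 on MAT male arrays and 0.04 to 0.10 on female arrays. MAT arrays lay in row 1 and AGED arrays in row 2 of each slide, and each sex lay on a slide of its own, so age and slide row, or sex and slide, cannot be told apart. The number of arrays limits the precision of every value.

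Cdkn2a had the largest log2 change of the 10 genes in both sexes, and it was higher in AGED mice. It was not called in either sex. In males the difference was absent from the signals before multiplicative detrending, where the 213 kept probes around its spot had a median change of -1.09. In females Gdf15 had the larger change without AGED female replicate 4 (-0.93 against 0.47 for Cdkn2a) or MAT female replicate 1 (-0.86 against 0.62). Lmnb1 was higher in AGED than in MAT females without overlap of the groups, and Cdkn1c was lower in AGED than in MAT males by limma's unadjusted test alone. For the other members the fitted changes lay between -0.60 and 0.36. In whole bladder tissue, fewer cells of a type and less RNA per cell cannot be told apart.

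None of the 10 members was called in males or in females by limma, where the share called among all genes was 0.851% in males and 0.190% in females. At an unadjusted p under 0.05, limma gave 2 members in males, Cdkn2a and Cdkn1c, and 2 in females, Cdkn2a and Lmnb1, where 16.2% of all genes passed in males and 10.5% in females. Limma's count was 1 in males without MAT male replicate 1, 2 or 3. The count was 2 higher and 1 lower without AGED male replicate 2 or 3 or AGED female replicate 4, and 2 higher and 0 lower without AGED male replicate 4. In females it was 0 without MAT female replicate 1 or AGED female replicate 4, and 1 without MAT female replicate 2, 3 or 4, AGED female replicate 2 or any 1 of the MAT male arrays. The methods' t-test at the same unadjusted threshold gave 1 member in males, Cdkn2a, and 0 in females, against 10.1% and 15.6% of all genes, and its p was 0.134 for Cdkn1c in males and 0.0967 and 0.0877 for Cdkn2a and Lmnb1 in females. With a change of 2-fold or more and an unadjusted p under 0.05, both limma and the methods' t-test gave 1 member in males, Cdkn2a, and 0 in females. Under these rules limma passed 2.80% of all genes in males and 1.89% in females, and the methods' t-test 1.85% and 1.47%. After adjustment the methods' t-test gave 0 members in either sex, against 0% of all genes in males and 0.00373% in females, and Chil3 passed in neither sex (adjusted p = 0.0846 and 0.137). AGED and MAT arrays lay apart, without overlap, for 1 member in males, Cdkn2a, and for 1 in females, Lmnb1, against 7.76% of the 26569 genes with a value on all male arrays and 10.8% of the 26737 with a value on all female arrays. The median log2 change of the members was -0.01 in males (-0.08 to 0.16 over the alternatives) and 0.06 in females (0.03 to 0.09), beside 0.00 and -0.01 over all genes tested. The fitted change was above 0 for 5 of the 10 members in males and for 6 in females, as for 50.2% and 49.1% of all genes, but under normexp background correction the sign turned for Cdkn2b and Gdf15 in males and for Cdkn2d and Glb1 in females. Limma's test of the difference between the sexes, read at an adjusted p under 0.05 with no fold limit, gave 0 members, against 0.149% of all genes, and it gave 1 member, Cdkn1c, at an unadjusted p under 0.05, against 9.87%.

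**Figure D1:**
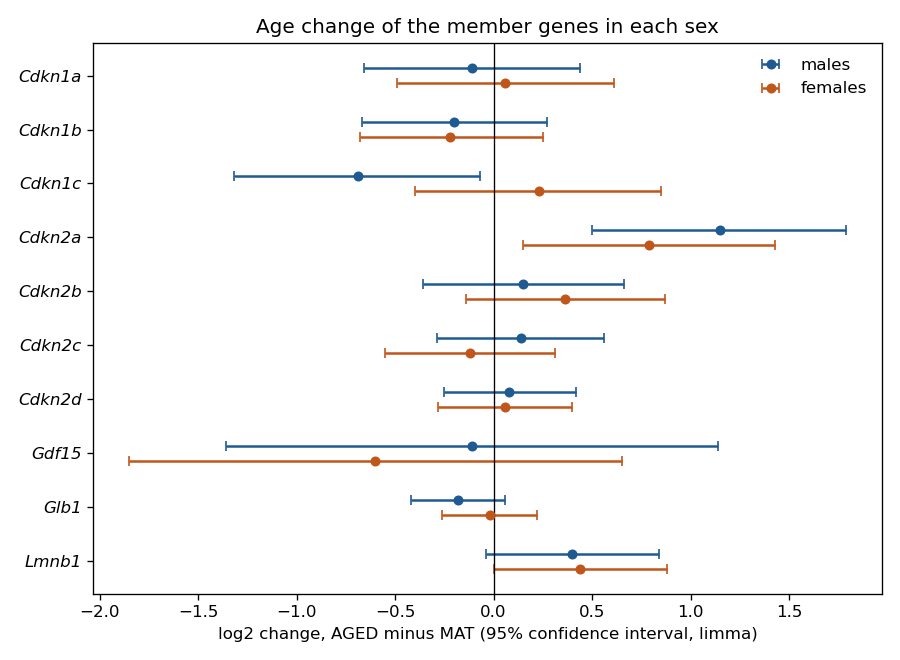
Fitted log2 change between AGED and MAT mice (x axis, log2) for the 10 member genes in males (blue) and females (orange). Points are limma estimates and bars 95% confidence intervals from 4 arrays a group. Cdkn2a had the highest estimate in both sexes, 1.15 and 0.79, and after adjustment over all genes no member passed.

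Cdkn2a encodes an Ink4 inhibitor of Cdk4 and Cdk6 and, in another reading frame, Arf. Probe A_55_P2008437, which was tested for the gene, was well above background on all 16 arrays. Its log2 signal was -2.21, -2.12, -1.77 and -2.59 in MAT male replicates 1 to 4 and -1.25, -1.23, -0.81 and -0.81 in AGED males. Each AGED male array lay above each MAT male array (exact p = 0.0286). In females the signal was -2.71, -1.89, -1.85 and -2.33 on the MAT arrays and -2.05, -1.68, -1.47 and -0.43 on the AGED arrays. The female groups overlapped (exact p = 0.0857), with AGED female replicate 1 below 2 of the MAT arrays and AGED female replicate 4 far above all others. From the highest to the lowest, the group means were -1.02 ± 0.25 in AGED males, -1.40 ± 0.69 in AGED females, -2.17 ± 0.34 in MAT males and -2.20 ± 0.41 in MAT females (SD, n = 4). The ranges of the AGED groups overlapped, and so did those of the MAT groups.

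The log2 change of Cdkn2a was 1.15 in males, or 2.21-fold, with a 95% confidence interval from 0.50 to 1.79 (unadjusted p = 0.00175, adjusted p = 0.0708 from limma). All 4 AGED male arrays lay above the mean of the MAT males. Over the alternatives the adjusted p ran from 0.0232, without AGED female replicate 4, which enters through the shared spread, to 0.996. In females the log2 change was 0.79, or 1.73-fold, with an interval from 0.15 to 1.43 (unadjusted p = 0.0191, adjusted p = 0.380), and all 4 AGED arrays lay above the mean of the MAT females. Without AGED female replicate 4 the female change was 0.47 (adjusted p = 0.674, in a range from 0.197 to 0.727 over the alternatives). Without AGED male replicate 1 the male change was 1.22 (adjusted p = 0.0730). The change in females less that in males was -0.36, with an interval from -1.26 to 0.55 (adjusted p = 0.845), and this difference was above 0 under normexp and before detrending.

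The spot of this probe lies at row 377 of 384, near an edge of the array. Its detrending factor was -0.18, -0.36, -0.14 and 0.31 on the log2 scale in MAT male replicates 1 to 4 and 0.73, 1.46, 1.00 and 1.20 in AGED males. All 4 AGED male spots were thus raised by more than any MAT male spot. On female arrays the factor ran from -0.26 to 0.04. Before this step the scaled log2 signal of Cdkn2a was -2.02, -1.74, -1.62 and -2.88 in MAT males and -1.89, -2.65, -1.75 and -1.95 in AGED males. The male groups then overlapped with equal means of -2.06, and the log2 change was 0.00 (adjusted p = 0.996, under an alternative added once the data had been seen). In females the change before detrending was 0.82. Normexp background correction starts from the raw signals and so also leaves out detrending. It gave a male change of 0.04 (adjusted p = 0.95) and moved the median of all genes in males to 0.12. The male groups overlapped for Cdkn2a under normexp, which is not a separate check, since both settings lack that step. The 213 kept probes within 10 rows and 10 columns of the spot had a median male change of -1.09 before detrending and 0.06 after it. How much of the male difference belongs to the gene and how much to the position of its spot was not tested.

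**Figure D2:**
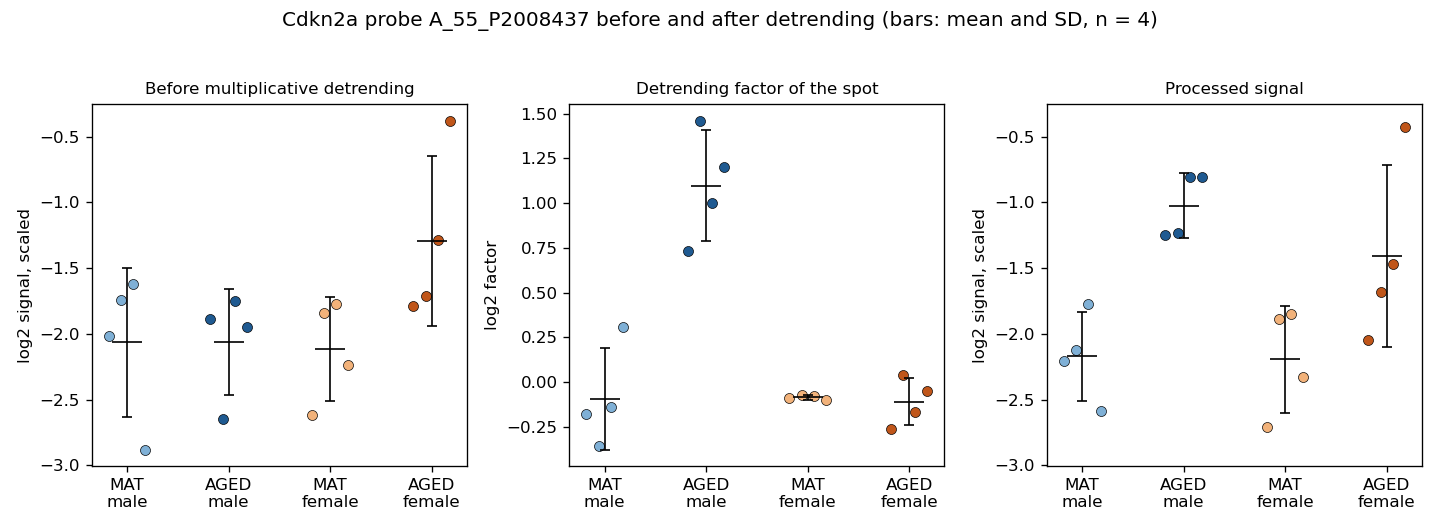
Scaled log2 signal of Cdkn2a probe A_55_P2008437 before multiplicative detrending (left), the log2 detrending factor of its spot (middle) and the scaled log2 processed signal (right), with 1 point per array and bars for mean and SD of 4 arrays. In males the groups overlap on the left, with means of -2.06, and lie apart on the right, where AGED males had the larger factors of 0.73 to 1.46. In females the factors stayed between -0.26 and 0.04.

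The second Cdkn2a probe, A_55_P2008438, was well above background on 1 AGED male and 1 MAT female array and on 0 arrays of the other groups, so it was not kept and no fold is given for it. Its scaled log2 signal ran from -7.11 to -5.86 in MAT males, from -6.64 to -5.10 in AGED males, from -7.21 to -5.81 in MAT females and from -6.63 to -5.39 in AGED females. These groups overlapped (exact p = 0.143 in males and 0.457 in females). The files assign both probes to the Arf transcript of the locus and give no position of a probe within it. Whether either probe also reads the Ink4a transcript is therefore not known from these data.

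Cdkn2b, which encodes another Ink4 inhibitor and is induced by TGF-beta in many cells, is a neighbour of Cdkn2a, with 1 lncRNA gene, Gm12610, between them in RefSeq. Both of its probes were well above background on all 16 arrays. The tested probe, A_55_P1988183, had log2 signals of 2.73, 2.98, 2.68 and 2.67 in MAT males and 3.34, 3.02, 3.21 and 2.09 in AGED males. In AGED males, 3 arrays lay above every MAT male array and replicate 4 lay below them all. The signals in females were 2.08, 2.36, 2.75 and 2.63 on MAT arrays and 2.78, 3.1, 2.90 and 2.49 on AGED arrays. In AGED females, 3 arrays again lay above every MAT female array and replicate 4 did not. The log2 change was 0.15 in males (95% confidence interval -0.36 to 0.66, adjusted p = 0.783) and 0.36 in females (-0.14 to 0.87, adjusted p = 0.641). The male change was 0.43 without AGED male replicate 4, 0.06 without replicate 3 and 0.01 without replicate 1, -0.36 under normexp and -0.31 before detrending, where the spot's factor in AGED males had a mean of 0.40 (adjusted p from 0.253 to 0.988 over the alternatives). The other probe, A_55_P1979526, gave a larger male change of 0.52 (0.05 to 1.00, unadjusted p = 0.0330, adjusted p = 0.264 over all kept probes from limma) and a female change of 0.26 (-0.21 to 0.74). The male change of that probe was -0.04 before detrending, and its factor was 1.5 and 1.47 in AGED male replicates 3 and 4.

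Cdkn2c and Cdkn2d complete the Ink4 family, and each had 1 probe, well above background on all 16 arrays. The log2 signal of Cdkn2c was -0.84 ± 0.11 in MAT males, -0.70 ± 0.22 in AGED males, -0.66 ± 0.45 in MAT females and -0.78 ± 0.26 in AGED females (SD, n = 4). The MAT females held a pair of high arrays, at -0.18 and -0.37, and a pair of low ones, at -1.07 and -1.03. The log2 change of Cdkn2c was 0.14 in males (95% confidence interval -0.29 to 0.56, adjusted p = 0.769) and -0.12 in females (-0.55 to 0.31, adjusted p = 0.906). The log2 signal of Cdkn2d was 2.17 ± 0.23 in MAT males, 2.25 ± 0.30 in AGED males, 2.29 ± 0.04 in MAT females and 2.35 ± 0.19 in AGED females (SD, n = 4). Its change was 0.08 in males (-0.25 to 0.42, adjusted p = 0.823) and 0.06 in females (-0.28 to 0.40, adjusted p = 0.948). AGED and MAT arrays overlapped in both sexes for both genes. Over the alternatives the change of Cdkn2c ran from 0.04 to 0.22 in males and from -0.25 to 0.04 in females, and that of Cdkn2d from -0.03 to 0.21 and from -0.01 to 0.12. The sign turned for Cdkn2c in females without MAT female replicate 1, and for Cdkn2d in males without AGED male replicate 3 and in females under normexp.

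Cdkn1a, a transcriptional target of p53, had 2 kept probes. The tested probe, A_51_P363947, is printed at 10 positions. Its log2 signals were 1.28, 2.44, 1.67 and 1.36 in MAT males and 0.90, 1.59, 1.93 and 1.90 in AGED males. The male groups overlapped across their range, with a single high array, replicate 2, among MAT males and a single low one, replicate 1, among AGED males. In females the signals were 1.85, 1.89, 2.10 and 2.20 on MAT arrays and 1.82, 2.09, 2.34 and 2.02 on AGED arrays. The female groups also overlapped. The log2 change was -0.11 in males (95% confidence interval -0.66 to 0.44, adjusted p = 0.858) and 0.06 in females (-0.49 to 0.61, adjusted p = 0.969). Over the alternatives the change ran from -0.25 to 0.14 in males and from -0.03 to 0.14 in females. The male sign turned before detrending, with array weights, without MAT male replicate 2 (0.14) and without AGED male replicate 1, and the female sign without AGED female replicate 3. The other probe, A_55_P1986282, was well above background on 3 of 4 AGED male arrays and on all other arrays, with changes of 0.00 in males (-0.39 to 0.38) and 0.08 in females (-0.31 to 0.47). Before detrending its male change was -0.38, where that of the tested probe was 0.01.

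Cdkn1b restrains Cdk2 in resting cells and is controlled largely through the stability of its protein. Its single probe gave log2 signals of 2.86, 2.82, 2.97 and 3.34 in MAT males and 3.56, 2.57, 2.58 and 2.48 in AGED males. AGED male replicate 1 was the highest of the male arrays, and the other 3 AGED males were below every MAT male. In females the signals were 2.73, 2.77, 2.76 and 2.95 on MAT arrays and 2.71, 2.17, 2.70 and 2.77 on AGED arrays. All 4 AGED female arrays lay below the MAT female mean, and the groups overlapped. The log2 change was -0.20 in males (95% confidence interval -0.67 to 0.27, adjusted p = 0.677) and -0.22 in females (-0.68 to 0.25, adjusted p = 0.803). In females the change was -0.08 without AGED female replicate 2, the array at 2.17. In males it was -0.09 without MAT male replicate 4 and -0.12, -0.13 and -0.10 without AGED male replicates 2, 3 and 4 in turn. Without AGED male replicate 1 the male change was -0.45 (adjusted p = 0.155, in a range from 0.0615 to 0.894 over the alternatives). Its spot, too, lay in a region of strong detrending, with factors of 0.32 to 1.27 in AGED males and a male change of -0.89 before that step (adjusted p = 0.0904). The 247 kept probes around it had a median male change of -0.61 before detrending and 0.11 after it.

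Cdkn1c, an imprinted gene expressed from the maternal allele, gave the most negative change of the members in males. Its probe, A_51_P339540, had log2 signals of 2.07, 2.33, 1.99 and 1.60 in MAT males and 1.14, 1.48, 2.19 and 0.40 in AGED males. In AGED males, 3 arrays were below every MAT male array, replicate 4 by the most, and replicate 3 lay within the MAT range, so the male groups overlapped (exact p = 0.143). In females the signals were 1.63, 1.02, 1.65 and 1.87 on MAT arrays and 1.85, 1.75, 1.66 and 1.82 on AGED arrays. The AGED females lay within a narrow band, inside the wider range of the MAT females. The male log2 change was -0.69, with a 95% confidence interval from -1.32 to -0.07 (unadjusted p = 0.0322, adjusted p = 0.257 from limma), and AGED males were lower in 3 of 4 arrays. It was -0.39 without AGED male replicate 4 (adjusted p = 0.429) and -0.99 without AGED male replicate 3 (adjusted p = 0.0673), in a range of adjusted p from 0.0633 to 0.611 over the alternatives. In females the change was 0.23 (-0.40 to 0.85, adjusted p = 0.857), and 0.05 without MAT female replicate 2, the array at 1.02. The change in females less that in males was 0.92, with an interval from 0.03 to 1.81 (unadjusted p = 0.0428, adjusted p = 0.492), so a difference between the sexes did not pass. Before detrending the male change was -0.97, beside a median of -0.51 for the 276 kept probes around the spot, and after detrending these had a median of -0.19.

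Lmnb1 encodes lamin B1 of the nuclear lamina, whose loss is used as a marker of senescence. Its probe is printed at 10 positions and was well above background on every array. The log2 signal was -0.07, 0.25, 0.18 and -0.19 in MAT males and 0.87, 0.16, 0.15 and 0.59 in AGED males. AGED male replicates 1 and 4 lay above all MAT males, and replicates 2 and 3 lay within their range. In females the signal was -0.15, 0.13, 0.26 and 0.23 on MAT arrays and 0.34, 0.46, 0.29 and 1.14 on AGED arrays. All AGED females lay above all MAT females, 3 of them by little and replicate 4 by the most (exact p = 0.0286), and under median scaling, normexp and before detrending the female groups overlapped. The log2 change was 0.44 in females, or 1.36-fold, with a 95% confidence interval from 0.00 to 0.88 (unadjusted p = 0.0495, adjusted p = 0.476 from limma), and 0.25 without AGED female replicate 4 (adjusted p = 0.808). In males it was 0.40 (-0.04 to 0.84, adjusted p = 0.354) and 0.26 without AGED male replicate 1. Before detrending the male change was 0.70 and the male groups did not overlap. The adjusted p of Lmnb1 ran from 0.183 to 0.808 in females and from 0.0808 to 0.630 in males over the alternatives. The fitted change was above 0 in both sexes under every alternative run.

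Glb1 encodes lysosomal beta-galactosidase, the enzyme behind the beta-galactosidase stain of senescent cells. Its log2 signal was 1.26 ± 0.14 in MAT males, 1.08 ± 0.11 in AGED males, 1.23 ± 0.05 in MAT females and 1.21 ± 0.17 in AGED females (SD, n = 4). All 4 AGED male arrays were below the MAT male mean, and the groups overlapped (exact p = 0.143). The log2 change was -0.18 in males (95% confidence interval -0.42 to 0.06, adjusted p = 0.458) and -0.02 in females (-0.26 to 0.22, adjusted p = 0.979). Before detrending the male change of Glb1 was -0.29, with AGED male replicate 1 at 0.31 and the other AGED males at 1.26 to 1.45, and the spot's factor on replicate 1 was 0.82. Gdf15, a secreted factor of the TGF-beta superfamily that cells make under stress, varied most among the members. Its log2 signal was -3.05, -0.69, -2.27 and -1.03 in MAT males and -0.83, -2.53, -3.18 and -0.93 in AGED males. Both male groups thus held low and high arrays across a like range. In females the signal was -1.80, -0.57, -0.89 and -0.78 on MAT arrays and -2.0, -2.0, -1.83 and -0.61 on AGED arrays. Here 3 AGED females lay below every MAT female, and replicate 4 lay near the top of the MAT range. The log2 change was -0.11 in males (-1.36 to 1.14, adjusted p = 0.947) and -0.60 in females (-1.85 to 0.65, adjusted p = 0.793), and -0.93 in females without AGED female replicate 4 (adjusted p = 0.771, in a range from 0.440 to 0.961 over the alternatives). Both intervals reach beyond a 2-fold difference, and the male change of Gdf15 ran from -0.54 to 0.33 and turned sign under 7 alternatives, normexp, array weights and the signals before detrending among them. The female sign of Glb1 turned under normexp, before detrending, and without MAT female replicate 4 or AGED female replicate 2.

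**Figure D3:**
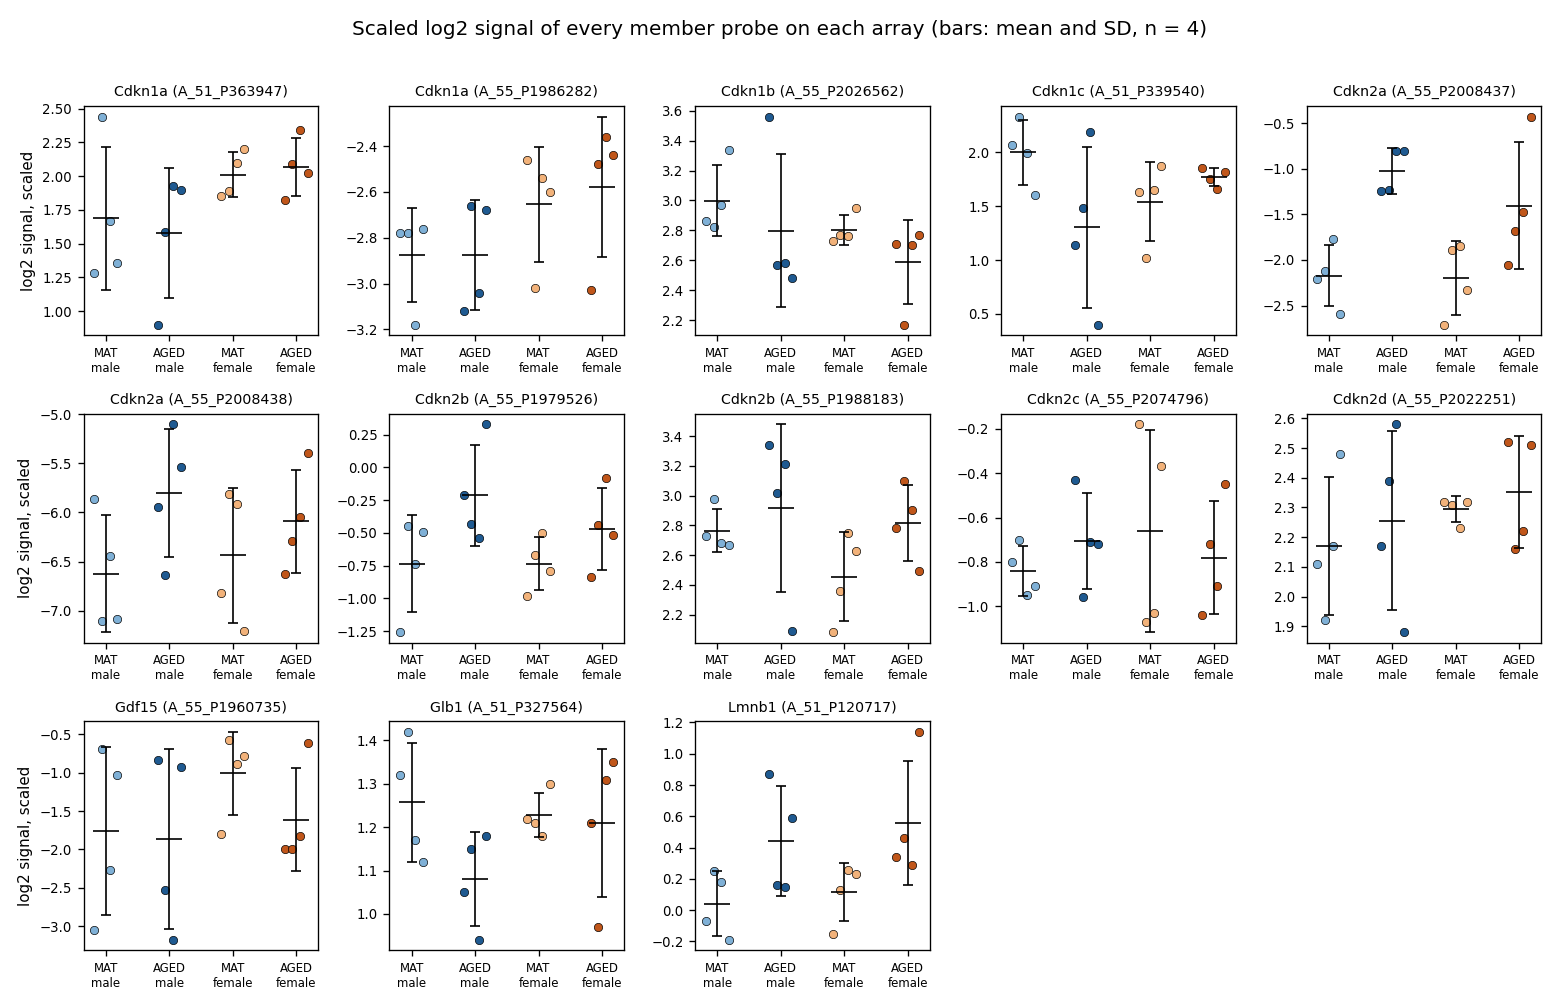
Scaled log2 signal (y axis) of all 13 member probes on each array, in the groups MAT male, AGED male, MAT female and AGED female (x axis), with bars for mean and SD of 4 arrays. The groups lie apart for Cdkn2a probe A_55_P2008437 in males and for Lmnb1 in females, and overlap elsewhere within a sex. Each panel has its own scale.

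Genes that act with the members were examined as lists. Of 18 tested cyclins, kinases and pocket proteins, 0 were called in either sex by limma. In females 12 of the 18 had a change above 0, against 49.1% of all genes, with a median of 0.15. At an unadjusted p under 0.05, 6 were higher and 1 lower in females, where 10.5% of all genes passed in either direction, and AGED and MAT females lay apart for 1 higher and 3 lower genes, against 10.8% of the 26737 genes. Without AGED female replicate 4 the count of higher genes was 2, and without MAT female replicate 4 it was 3. In males 8 were above 0, with a median of -0.05 (-0.12 to 0.00 over the alternatives). The log2 changes of Ccnd3, Ccnd1 and Cdk4, the genes of highest signal, were 0.00, -0.23 and 0.16 in males and 0.28, 0.24 and -0.07 in females, and in males that of Ccnd3 was 0.25 before detrending and that of Ccnd1 -0.01 with array weights. Among 12 regulators of the Ink4/Arf locus, which include Polycomb genes, 0 were called, and the median was 0.14 in males (0.04 to 0.32 over the alternatives) and 0.01 in females (-0.07 to 0.06). The changes of Id1, Eed and Ets2 were 0.27, 0.28 and -0.19 in males and 0.05, 0.06 and 0.23 in females, and that of Ets2 in males was 0.01 without AGED male replicate 1.

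Of 16 tested proliferation genes, many of which depend on E2F factors that the inhibitors hold in check, 0 were called in either sex by limma. In females all 16 had a change above 0, with a median of 0.87, and 12 of them passed at an unadjusted p under 0.05, beside 49.1% of all genes above 0 and 10.5% that passed in either direction. In males 5 of the 16 were above 0, against 50.2% of all genes, with a median of -0.15 (-0.25 to -0.03 over the alternatives). The changes of Pcna, Mcm3 and Mcm6, the brightest of the list, were 0.38, 0.95 and 0.49 in females (adjusted p = 0.280, 0.333 and 0.298) and -0.04, -0.37 and 0.00 in males. In males the change of Mcm3 was -1.02 before detrending, -0.95 under normexp (adjusted p = 0.0457, under the 2-fold limit) and 0.04 without AGED male replicate 4, and that of Pcna was 0.20 before detrending. The mean log2 signal of the list was -1.15, -0.57, -0.94 and -1.01 in MAT females and -0.69, -0.24, -0.20 and 0.82 in AGED females. AGED female replicate 4, the array with the highest Cdkn2a and Lmnb1, was also the highest for this list. Without it the female median was 0.49, and 7 genes were higher at an unadjusted p under 0.05. The part of proliferating cells in the Cdkn2a and Lmnb1 values was not tested.

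Of 20 genes of the p53 pathway, 0 were called in either sex, and the median was 0.03 in males (-0.10 to 0.09 over the alternatives) and 0.04 in females (-0.02 to 0.06). The changes of Perp, Phlda3 and Aen were -0.18, 0.06 and 0.42 in males and 0.12, -0.02 and 0.27 in females, and before detrending the male values were -0.01, 0.30 and 0.03. Of 13 tested genes of the integrated stress response, which can induce Gdf15, 0 were called. Their median was -0.04 in males (-0.12 to 0.09 over the alternatives) and 0.08 in females (0.02 to 0.19). The changes of Atf4, Nupr1 and Cebpb were 0.16, -0.18 and -0.09 in males and 0.40, -0.14 and 0.32 in females. Before detrending the male values of these genes were -0.07, 0.20 and 0.24, each with the other sign, and Cebpb was at 0.24 in males without MAT male replicate 2.

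Among 14 genes of the lamina and nuclear envelope, the setting of Lmnb1, 0 were called, with a median of -0.03 in males (-0.09 to 0.17 over the alternatives) and 0.03 in females (0.02 to 0.08). The changes of Sun2, Lmna and Hmgb1 were 0.38, -0.09 and -0.29 in males and 0.15, 0.20 and -0.06 in females. Before detrending the male values were -0.03, 0.17 and 0.16, so that all 3 signs turned, as they did under normexp. Among 22 lysosomal genes, the setting of Glb1, 0 were called, with a median of 0.00 in males (-0.07 to 0.16 over the alternatives, the highest under normexp) and 0.03 in females (-0.06 to 0.09). The changes of Gla, Lamp1 and Ctsb were 0.00, -0.18 and 0.15 in males and 0.03, 0.04 and -0.08 in females. In males Gla and Ctsb had changes of -0.17 and 0.42 before detrending, and Lamp1 had 0.05 without AGED male replicate 1.

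Of 26 tested factors that senescent cells secrete, 1 was called, Mmp3, in both sexes, where 0.851% of all genes were called in males and 0.190% in females. Mmp3, a matrix metalloproteinase that the study's table places among the lower genes, had a log2 signal of -2.61 ± 0.40 in MAT males and -0.14 ± 0.82 in AGED males, and of -0.72 ± 0.13 in MAT females and 1.18 ± 0.12 in AGED females (SD, n = 4). It rose 5.55-fold in males (log2 change 2.47 with a standard error of 0.31, adjusted p = 0.00115) and 3.73-fold in females (log2 change 1.90, adjusted p = 0.0269), with no overlap of the groups in either sex. Among genes with a value on all arrays of the sex, groups lay apart for 7.76% in males and 10.8% in females. The female call of Mmp3 was lost without any 1 of 7 female arrays, all but AGED female replicate 3, with an adjusted p of up to 0.123, and before detrending (0.184) and under normexp (0.105). The male change was 1.73 under normexp, and the male call was lost with each sex fitted alone (adjusted p = 0.0964) and with the methods' t-test after adjustment (0.255). In females 23 of the 26 factors had a change above 0, with a median of 0.54, and 7 were higher and 0 lower at an unadjusted p under 0.05. Over all genes these shares were 49.1% above 0 and 10.5% at that p in either direction. Without AGED female replicate 4 the median was 0.28, and the count at an unadjusted p under 0.05 was 2 without MAT female replicate 1 or 2, 3 without MAT female replicate 4 or AGED female replicate 4, and 4 without AGED female replicate 2. In males 15 were above 0, against 50.2% of all genes, with a median of 0.09, which was -0.06 without MAT male replicate 1 and 0.30 with array weights. The changes of Igfbp2, Igfbp6 and Ccl8 were -0.38, -0.18 and 0.92 in males and 0.23, 0.20 and 0.78 in females. Without AGED male replicate 1 the male values of Igfbp2 and Igfbp6 were -0.06 and 0.08, and before detrending that of Igfbp6 was -0.58.

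Immune cells can carry senescence markers, and their markers were high on some of the arrays named above. The 8 tested macrophage genes had a mean log2 signal of 3.63 in AGED male replicate 1, against 2.62 to 2.66 in the other AGED males, and of 3.30 in AGED female replicate 4, against 2.61 to 2.82 in the other AGED females. In males 5 of the 8 had a change above 0 and in females 6, and Cd68 had no probe. Their median change was 0.37 in males, 0.06 without AGED male replicate 1, and 0.42 in females, 0.26 without AGED female replicate 4. The changes of Csf1r, Itgam and C1qc, the brightest, were 0.38, -0.01 and 0.53 in males and -0.08, -0.49 and 0.47 in females, without a call. Without AGED male replicate 1 the male values of Csf1r and C1qc were 0.18 and 0.17, and with the mean of its probes Itgam had changes of 0.20 in males and 0.22 in females. The 8 tested T cell genes, with Lck the brightest, had a mean of 1.31 in AGED male replicate 1 and -0.58, -1.57 and -1.21 in the other AGED males. All 8 had a change above 0 in males, with a median of 0.90, which was 0.19 without AGED male replicate 1, and 0 of 8 in females, with a median of -0.19. Without AGED female replicate 1 the female median was 0.11, with 6 of 8 above 0. The changes of Lck, Cd4 and Cd3e were 1.10, 0.32 and 0.52 in males and -0.18, -0.22 and -0.02 in females, and the male values were 0.44, 0.11 and 0.13 without AGED male replicate 1. Before detrending that of Cd3e in males was 0.95. The part of these cells in the values of Lmnb1 and Cdkn2a was not tested.

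Over the 16 arrays, the genes with a symbol whose signal was most like that of Cdkn2a were Nans, with a Pearson correlation of 0.83, Pramel13 (0.83), Srebf2 (0.82), Nxph1 (0.82) and Chil3 (0.81). Nxph1 was well above background on 5 of the 16 arrays. Among the members, the correlation with Cdkn2a was highest for Lmnb1, at 0.74, and it was 0.21 for its neighbour Cdkn2b. The genes most like Cdkn1a were Larp7 (0.82), Selenos (0.82), Cse1l (0.82), Enc1 (0.81) and Pafah1b1 (0.81). The correlation of Cdkn1a with Cdkn2a was 0.03 and with Cdkn1b -0.60. These values describe likeness over arrays that share groups, slides and spot positions, and they carry no test.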

How the data were processed

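For each spot the authors deposited the intensity from Agilent's software, background-subtracted and detrended within the array, beside a table of log2 values. The file headers name Feature Extraction 10.7.3.1 and the submitters' notes 9.1. In the deposited log2 table each array's log2 processed signal is shifted by 1 constant and each probe is centred on its median (smallest correlation with the scanner values 0.98); what set that constant is unknown. Its medians were 0.012, 0.02, -0.0192 and 0.0575 in MAT males, 0.29, 0.108, 0.118 and 0.0163 in AGED males, -0.0822, -0.0425, -0.0924 and -0.066 in MAT females, and 0.0472, 0.00759, -0.125 and -0.00397 in AGED females.

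Controls and outlier-flagged spots (399 probe values) were left out, spots of a probe were averaged, and each array's 75th percentile was subtracted from its log2 processed signals. Probes well above background on at least 4 of 16 arrays were kept (36972), and the one of highest mean stood for its gene. Names came from RefSeq accessions (GRCm38.p6) for 26582 of the 55681 probes. Group means were fitted over all 16 arrays in limma 3.58.1 (R 4.3.3; 12 residual degrees of freedom). Where all arrays of a group failed to measure a probe, its level there is a bound, and no fold is given where the bound is under 1. Alternatives were 3 filters, quantile and median scaling, normexp (offset 50) on the raw median spot signals, the authors' table, a floor, the mean of probes, other tests and thresholds, each sex alone, the replicate block, array weights, leaving out each array and, chosen after seeing the data, the signal before multiplicative detrending. The signals that normexp starts from are not detrended either. Named are the members with all their probes, the 3 brightest and all called genes of each list described, 5 correlates each of Cdkn2a and Cdkn1a, Chil3, Ddx3y and Xist. The members and lists were chosen with earlier results of these data known. The procedure was also tested on simulated data.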

Additional observations from a re-analysis of the deposited data

Results flagged for a closer look

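Within a group of 4 arrays, an array was marked when its gap to the nearest other array passed Dixon's 95% critical value as a share of the group's range, which chance does in about 1 in 20 groups. Of 52 groups of member probe values 11.5% were marked, of 16 groups of array measures 18.8%, and of 84 groups of list means 4.76%. The 84 include the groups of the male accessory gland genes, which had no values and could not be marked. For the members and the array measures the marked share is above 1 in 20, and the values of an array are not independent. For Cdkn1b, AGED male replicate 1 was the highest at 3.56 (gap of 0.907 of the range), MAT female replicate 4 the highest at 2.95 (0.842) and AGED female replicate 2 the lowest at 2.17 (0.880). For the second Cdkn1a probe, MAT male replicate 3 was the lowest at -3.18 (0.943). For Cdkn2d, MAT female replicate 3 was the lowest at 2.23, against 2.31 to 2.32 (0.964). For Gdf15, AGED female replicate 4 was the highest at -0.61 (0.875). Among array measures, AGED male replicate 1 had the lowest 75th percentile at 9.18 (0.882), MAT female replicate 3 the lowest median signal at 82.0 against 85.9 to 86.3 (0.890), and MAT male replicate 4 the lowest median background at 30.5 against 32 (1.00). Among list means, MAT female replicate 3 was the highest for the secreted factors at 0.31 (0.864) and the lowest for the lysosomal genes at 2.91 (0.861). MAT male replicate 4 was the highest of its group for the T cell genes at -0.96 (0.901), and AGED male replicate 1 for the macrophage genes at 3.63 (0.955).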

How the results depend on the processing

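No member was called in the main setting, so a call that changed direction could not arise. The fitted sign of uncalled members did turn under some alternatives, in males under 7 for Gdf15. In females 0 members were called under any alternative. In males 1 member, Cdkn2a, was called with the methods' t-test or limma at an unadjusted p, and without AGED female replicate 4 (0 to 1 over left-out arrays). Groups that did not overlap numbered 1 to 2 members in males and 1 to 4 in females over left-out arrays. A group with 1 array fewer lies apart more readily, so these counts cannot be set against those of full groups. With all arrays the count was 0 in females under median scaling, normexp and before detrending. Under normexp and before detrending the 1 member in males was Lmnb1, and the male groups overlapped for Cdkn2a. No share of all genes is given for these settings or for the left-out arrays. Over all genes, 228 were called in males, 51 in females and 40 for the difference between the sexes, which carries no fold limit. Normexp gave 756 in males and 462 for the difference, and the signal before detrending, chosen after seeing the data, 1396 and 454. No filter gave 552, 18 and 7. Each sex alone gave 11 in males and 99 in females. The methods' t-test gave 496 and 394 unadjusted and 0 and 1 adjusted. Limma at an unadjusted p gave 751 in males and 506 in females with the 2-fold limit and 2644 for the difference without one, and at an adjusted p with no fold limit 461 in males. Array weights gave 194 in females and 253 for the difference, and the mean of probes 25 for the difference. The replicate block gave 184 in males, 3 in females, 12 for the difference and 0 members in either sex, and Chil3 and Mmp3 had an adjusted p of 0.0808 in females with it. AGED and MAT arrays of the same number had correlations of -0.15 to 0.07 over all genes, and 1 of 8 male and 1 of 8 female arrays correlated best with its own number. Leaving out 1 array gave 123 to 377 in males, 1 to 120 in females and 6 to 269 for the difference. The cause was not tested. Signal over background limits the second Cdkn2a probe. The male changes of some members moved with multiplicative detrending, most for Cdkn2a, at 1.15 after that step and 0.00 before it. The kept probes around the Cdkn2a spot had a median male change of 0.06 after that step and -1.09 before it. The male change of Cdkn2c was 0.14 after that step and 0.15 before it.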

Other observations

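The lists of cell type markers described here gave 2 called genes, both of neutrophils and both in males, where 0.851% of all genes were called. S100a8 rose 5.40-fold (log2 change 2.43, adjusted p = 0.0211 from limma) and S100a9 8.48-fold (log2 change 3.08, adjusted p = 0.0125), with no overlap of AGED and MAT males. Groups lay apart for 7.76% of the genes with a value on all male arrays. The study's table places S100a9 among the lower genes. The call of S100a8 was lost without MAT male replicate 3 (adjusted p = 0.0741) or MAT male replicate 4 (0.0504), and its log2 change was 1.33 under normexp. Both calls were lost with each sex fitted alone (0.157 and 0.144) and with the adjusted methods' t-test (0.329 and 0.299). In females their changes were 1.12 (adjusted p = 0.436) and 1.62 (adjusted p = 0.323). Over the 6 tested neutrophil genes the median change was -0.03 in males (-0.14 to 0.21 over the alternatives) and 0.78 in females (0.37 to 0.93, the lowest under normexp), and the changes of Csf3r and Elane were -0.04 and -0.26 in males and 0.09 and -0.88 in females. Before detrending Csf3r was at 0.13 in males.

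By limma 0 genes of the other lists described were called in either sex, and the ranges given here are those over the alternatives. Smooth muscle genes had a median change of 0.03 in males (-0.18 to 0.07) and 0.07 in females (-0.04 to 0.18). The changes of Acta2, Cnn1 and Tagln were 0.06, 0.04 and 0.19 in males, where quantile scaling gave -0.17, -0.19 and -0.06, and -0.07, 0.18 and 0.12 in females. Without AGED female replicate 3 the female values of Acta2 and Tagln were 0.10 and 0.31, and before detrending the male value of Cnn1 was -0.31. Urothelium genes had a median of 0.14 in males (-0.07 to 0.19) and 0.22 in females (0.12 to 0.30). Those of highest signal, Upk1a, Upk3a and Krt18, had changes of -0.08, 0.19 and 0.32 in males and 0.12, -0.12 and 0.27 in females. Before detrending the male values of Upk3a and Krt18 were -0.30 and 0.61 and the female value of Upk3a was -0.27, and without AGED female replicate 3 that of Upk1a was 0.27. Fibroblast genes had a median of -0.38 in males (-0.49 to -0.23) and -0.07 in females (-0.22 to 0.01). The changes of Col1a2, Col3a1 and Dcn were -0.46, -0.72 and -0.29 in males and -0.03, -0.38 and -0.08 in females. In males Col1a2 and Dcn were at -0.17 and -0.78 before detrending, and Col3a1 at -0.33 with array weights. Endothelial genes had medians of 0.00 (-0.16 to 0.09) and -0.09 (-0.16 to -0.01). Among them Cdh5, Kdr and Vwf had changes of -0.23, -0.33 and 0.00 in males and 0.32, -0.09 and 0.00 in females, with Vwf at -0.60 in males before detrending and Cdh5 at -0.16 in females without MAT female replicate 4. Adipocyte genes had a median of -0.59 in males, from -1.75 without MAT male replicate 2 to -0.10 without AGED male replicate 3. In females it was -1.12, from -1.38 without AGED female replicate 4 to -0.65 without MAT female replicate 1. The changes of Adipoq, Fabp4 and Cidec were -0.59, -0.29 and -1.54 in males and -1.12, -0.01 and -0.77 in females, and without MAT male replicate 2 the male values of Adipoq and Cidec were -2.04 and -2.84. Skeletal muscle genes had medians of -0.44 in males (-0.72 to -0.04, and -0.10 without AGED male replicate 4) and -0.11 in females (-0.26 to -0.03). The changes of Acta1, Ckm and Tnnt3 were -0.85, -0.04 and -1.41 in males and -0.03, -0.19 and -0.40 in females, with Ckm at 0.35 in males without AGED male replicate 4. B and plasma cell genes had a median of 0.44 in males, from -0.02 without MAT male replicate 2 to 1.12 without MAT male replicate 4. In females it was -0.75, from -1.20 without AGED female replicate 2 to -0.01 without AGED female replicate 1. For Xbp1, Jchain and Cd79b the changes were -0.40, 1.14 and 0.42 in males and 0.21, -1.0 and -0.11 in females, with Xbp1 at -0.12 in males without AGED male replicate 1. Red blood cell genes had a median of -0.30 in males, from -0.68 without MAT male replicate 2 to 0.04 without MAT male replicate 4. In females it was -0.38, from -0.71 without MAT female replicate 1 to -0.07 without AGED female replicate 2. For Hba-a1, Hbb-bt and Hbb-bs the changes were -0.39, -0.57 and 0.02 in males and -0.44, -0.46 and -0.31 in females.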
